A study of Homo sapiens with 8 samples.

Results

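Predicted miRNAs that were read in every library of a circSOD2 knockdown experiment are described here by their levels, their spread and their change. In the count table these miRNAs carry a number given by the authors where known miRNAs carry their established names. The members were selected on their counts, with at least 10 counts required in each of the 8 libraries, and 218 of the 1630 predicted miRNAs of the table (13.4%) met that minimum. The table holds 3112 miRNAs in all, and 369 of its 1482 known miRNAs (24.9%) met the same minimum. Because the counts that chose the members are also the counts compared below, levels and list counts are given as description, with no test over the list. The 218 members have only 157 distinct patterns of counts over the 8 libraries, so lists are counted both with identical members apart and with identical members once.

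The cells were 786-O, a human clear cell renal carcinoma line in long use, and small RNA of 4 negative control (NC) and 4 circSOD2-sh libraries was sequenced on an Illumina platform. By the sample labels, the NC cells received a control plasmid and the circSOD2-sh cells a plasmid against circSOD2, a circular RNA made from the SOD2 gene, both with Lipofectamine 3000, and RNA was taken 48 h later. The methods of the study instead describe a lentivirus with puromycin selection, and the labels name no shRNA sequence and do not say whether the replicates were separate cultures. The p-values therefore measure only the spread between these libraries, which may be technical. Neither circSOD2 nor SOD2 mRNA is part of a miRNA count table, so the knockdown itself could not be checked here. Total counts were 9245044, 8960761, 8007172 and 6386872 in NC replicates 1 to 4, and 3972143, 4208276, 3743860 and 3920678 in circSOD2-sh replicates 1 to 4. Every circSOD2-sh library was shallower than every NC library.

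A miRNA is cut from the stem of a hairpin in a longer transcript, by Drosha in the nucleus and Dicer in the cytoplasm, and then guides an Argonaute protein to mRNAs through its seed, a short stretch near its 5′ end. Many miRNA hairpins lie in introns of other genes and come from the same transcript. Prediction programs propose further miRNAs where small RNA reads pile up on a stretch of genome that could fold into a hairpin, and such a prediction can overlap a hairpin that is already annotated or occur at several copies in the genome.

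The deposited files give no sequence and no position for any predicted miRNA, so no member can be shown by its own sequence. For 11 members, however, the counts were equal or nearly equal to those of a known miRNA in all 8 libraries, and the mature sequences of these known miRNAs are shown because they are the only sequences in the files that can be tied to members through their counts. Of the 7 known miRNAs involved, 5 were found in the RefSeq table (GRCh38.p14), and the others are miR-28-5p and miR-1296-5p. Capitals mark the seed, bases 2 to 8, and the sequences run from 5′ to 3′.
miR-339-5p: uCCCUGUCcuccaggagcucacg
miR-130b-5p: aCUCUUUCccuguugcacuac
miR-574-5p: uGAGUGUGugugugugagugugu
miR-423-5p: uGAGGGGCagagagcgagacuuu
miR-561-5p: aUCAAGGAucuuaaacuuugcc
The 5 sequences have 5 distinct seeds, so none of them belongs to the same seed family as another. Mature miR-339-5p lies on chr7:1022990-1023012 on the minus strand, in an intron of all 7 transcripts of C7orf50 that span it. The positions of miR-130b-5p (chr22:21653316-21653336), miR-574-5p (chr4:38868056-38868078) and miR-561-5p (chr2:188297517-188297538) are on the plus strand and are intronic as well, in the noncoding transcript AP000553.1, in FAM114A1 and in GULP1. The gene LINC01090 also spans miR-561-5p, on the opposite strand. For miR-423-5p (chr17:30117095-30117117, plus strand), 12 transcripts of NSRP1 span the position and 1 of them has an exon over it, while on the opposite strand AC104984.2 spans it without an exon and the 1 transcript of AC104984.5 has an exon over it.

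In the NC libraries the members held the majority of all counts, and almost all of that was a single predicted miRNA, called the dominant one below. The members together held 61.2%, 58.0%, 56.0% and 60.7% of the counts in NC replicates 1 to 4, against 4.79%, 3.44%, 3.61% and 4.14% in circSOD2-sh replicates 1 to 4. The dominant predicted miRNA alone held 59.1%, 56.3%, 54.3% and 58.8% in NC, and 0.0947%, 0.0730%, 0.0628% and 0.105% in circSOD2-sh. All 4 NC libraries were far above all 4 circSOD2-sh libraries on both measures. Known miRNAs at the same minimum held 38.6% ± 2.69 of the counts in NC and 94.2% ± 0.619 in circSOD2-sh (SD, n = 4).

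**Figure D1:**
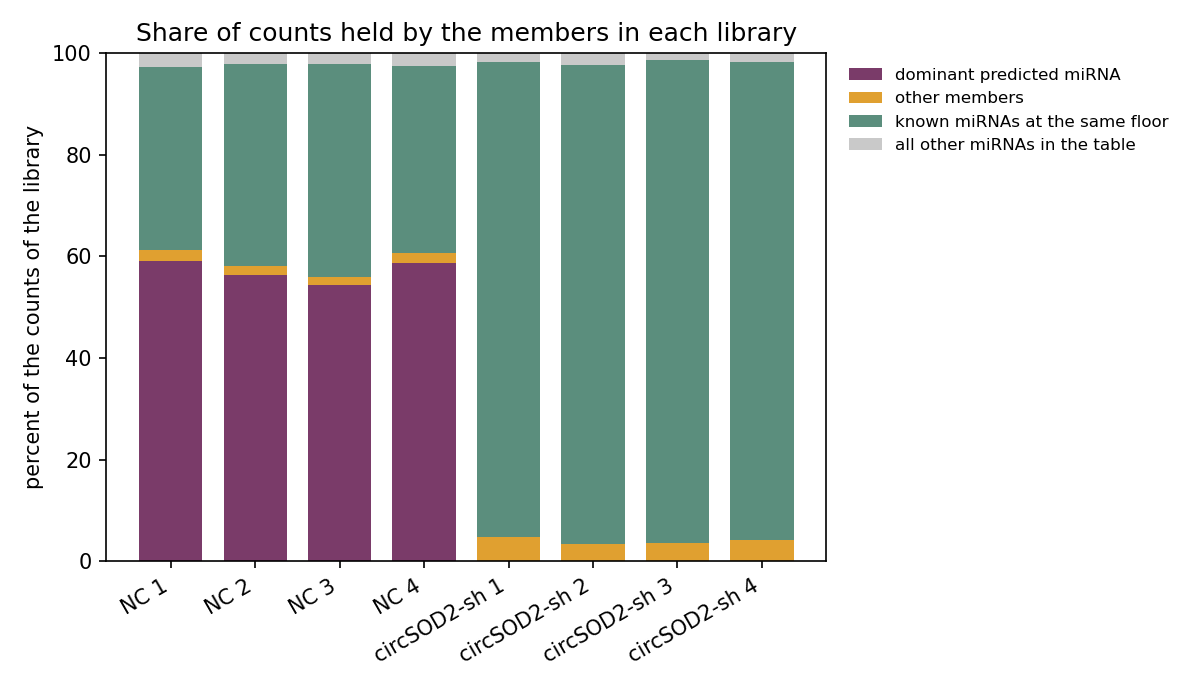
Percent of the counts of each library (y axis) held by the dominant predicted miRNA, the other members, known miRNAs with at least 10 counts in every library, and all other miRNAs of the table, for the 4 NC and 4 circSOD2-sh libraries (x axis). The dominant predicted miRNA takes 54.3% to 59.1% of each NC bar and cannot be seen at this scale in the circSOD2-sh bars, whose members hold 3.44% to 4.79%.

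Without the dominant predicted miRNA the members' share was much the same in both groups. Of the counts that remained after it was taken out, the other 217 members held 5.12%, 3.99%, 3.79% and 4.74% in NC replicates 1 to 4 and 4.70%, 3.37%, 3.55% and 4.04% in circSOD2-sh replicates 1 to 4. The groups overlapped, with replicate 1 the highest in each. Their means were 4.41% ± 0.622 in NC and 3.91% ± 0.595 in circSOD2-sh (SD, n = 4), and with identical members counted once they were 3.63% ± 0.526 and 2.92% ± 0.444. These shares rest on few members: the 10 most abundant of the other members held 72.4% of the other members' counts in NC and 67.8% in circSOD2-sh.

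Counts were scaled between libraries with TMM, a set of factors computed so that most miRNAs keep their level, and are given as CPM of the TMM-scaled library (normalized CPM). The NC factors ranged from 0.697 to 0.733, and those of circSOD2-sh from 1.33 to 1.48. On this scale a count of 10 came to 1.53 to 2.25 normalized CPM in the NC libraries and 1.70 to 2.0 in those of circSOD2-sh. Because PCR copies of a molecule are read as separate counts, any precision taken from the counts covers counting error only. Most members were rare: their median level was 6.56 normalized CPM in NC and 7.86 in circSOD2-sh. Of the 218 members, 120 had a mean below 10 normalized CPM over the 8 libraries, 61 were between 10 and 100, 31 between 100 and 1000, and 6 above that. Known miRNAs at the same minimum had a median of 35.0 normalized CPM in NC and 33.3 in circSOD2-sh.

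The selection kept out predicted miRNAs that were missing from 1 group. Of all 1630, 372 reached 10 counts in every NC library and 265 in every circSOD2-sh library. The minimum was met in all NC libraries but not in all circSOD2-sh libraries by 154, and the reverse held for 47. The lowest count of a member fell in an NC library for 158 members and in a circSOD2-sh library for 60. Just inside the minimum were 15 members whose lowest count was exactly 10, and just outside were 9 predicted miRNAs whose lowest count was 9. Of the 15 inside, 812 (log2 fold change -3.34) and the identical 150a and 150b (-2.99) were called lower. The members 298, 458, 13a, 13b, 208a and 208b were called higher, and 21, 26 and 387 had negative values without a call. Counts are given for 1133, 1148 and 1143. The predicted miRNA 1133, just inside, had 18, 15, 10 and 13 counts in NC and 31, 22, 21 and 24 in circSOD2-sh. At the same lowest count, 1148 had 16, 10, 10 and 10 counts in NC and 18, 27, 16 and 19 in circSOD2-sh, and 1143 had 19, 10, 10 and 14 against 19, 12, 16 and 19. In normalized CPM, the groups overlapped for 1143 but not for 1133 and 1148, and their log2 fold changes were 0.38, 0.87 and 0.86 (edgeR adjusted p 0.273, 0.00520 and 0.0104). Both calls were lost with DESeq2 (0.82 and 0.81) and with no low-count filter (0.83 for each), and that of 1148 also without NC replicate 2 (0.68), without circSOD2-sh replicate 2 (0.59) and without both NC replicate 4 and circSOD2-sh replicate 2 (0.65). Just outside, 1005a and 1005b both had 10, 9, 14 and 11 counts in NC and 12, 9, 9 and 9 in circSOD2-sh, and 1140 had 15, 12, 9 and 10 against 46, 37, 18 and 45.

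Among the members, far more were higher in circSOD2-sh than lower. This split belongs to the selected list and not to predicted miRNAs at large. Of those the minimum left out, 154 met it in every NC library but not every circSOD2-sh library, and 47 the reverse. With the quasi-likelihood test of edgeR over 895 miRNAs and an adjusted p under 0.05, 124 of the 218 members were higher, 26 were lower and 68 were not called, and all 218 passed the low-count filter. Over all miRNAs tested, 33.3% were called higher and 32.4% lower. The median log2 fold change of the members was 0.61, with an interquartile range of 0.07 to 1.19 and values from -10.39 to 5.17, and 169 members had a value above 0. The median over all miRNAs tested was -0.002. Among the called members, 80 rose by more than 1 on the log2 scale and 17 fell by more than 1. With identical members counted once, these were 34 and 16 of 157, against 209 and 176 of all 895 miRNAs tested, where identical ones count apart. The groups of 4 libraries did not overlap for 118 members, 93 of them higher and 25 lower, which is 54.1% of the members against 60.3% of all miRNAs tested.

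Among known miRNAs held to the same minimum, fewer were higher than lower with TMM. Of these 369, 83 were higher and 113 were lower, with a median log2 fold change of -0.16, and their groups did not overlap for 182 (49.3%). That order was lost when identical miRNAs were entered once (92 higher, 81 lower, median -0.04 over 360) and reversed with library totals (298 higher, 9 lower, median 0.81). The 214 predicted miRNAs that were tested without being members had 49 higher and 132 lower and a median of -5.39; most of them fell short of the minimum in circSOD2-sh, so this contrast is part of the selection. No test of the difference between these lists was made.

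**Figure D2:**
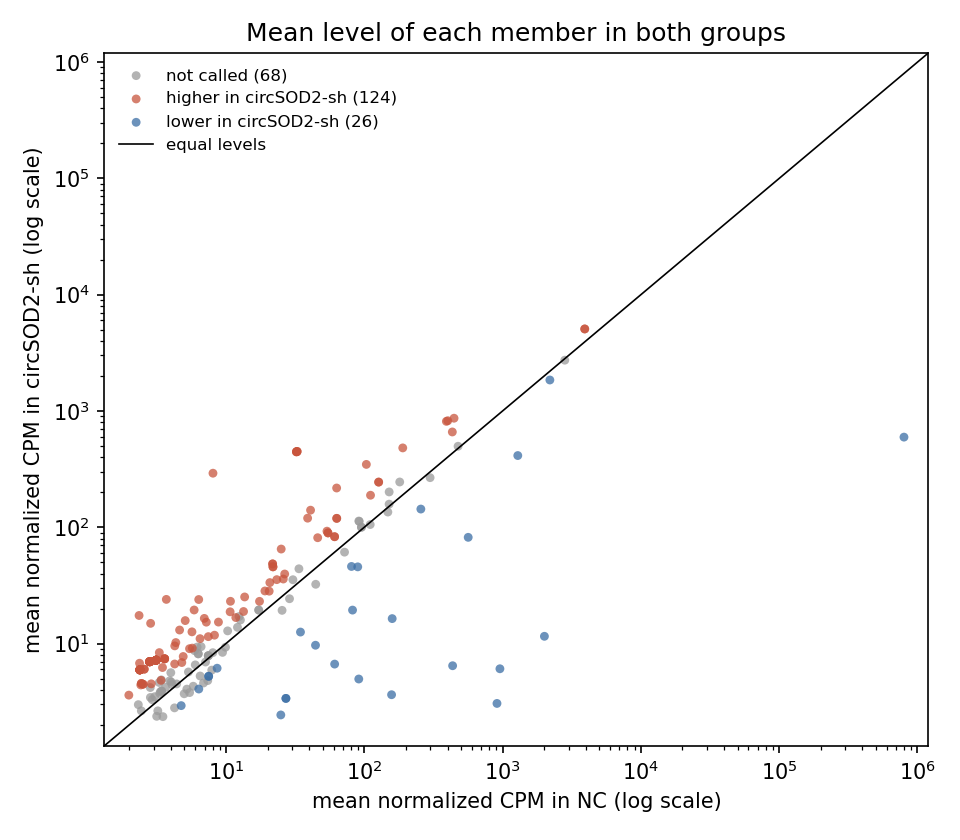
Mean normalized CPM of each of the 218 members in NC (x axis, log scale) and circSOD2-sh (y axis, log scale, n = 4 libraries each), coloured by the call of edgeR, with a line at equal levels. The 124 members called higher lie above the line, 80 of them by more than 1 on the log2 scale, and the 26 called lower lie below it, the dominant predicted miRNA furthest to the right. With identical members counted once, 34 of 157 are called higher by more than 1, against 209 of all 895 miRNAs tested, where identical ones count apart.

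Taking out the dominant predicted miRNA changed little in the list: 124 of 217 were higher, 25 were lower and the median log2 fold change was 0.61. Counting identical members once changed more. Of the 157 distinct members, 71 were higher and 24 lower, with a median of 0.41, against 33.3% higher and 32.4% lower of all miRNAs tested. The groups did not overlap in 78 of the distinct members (49.7%), against 60.3% of all. When the fit itself was repeated with identical miRNAs entered once (799 tested), 79 of 157 were higher and 20 lower, with a median of 0.52, against 32.7% higher and 28.8% lower of all.

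Small changes took their direction from the scaling. When libraries were scaled by their totals instead, the log2 fold change of all miRNAs tested moved in the median from -0.002 to 0.96, and that of the members from 0.61 to 1.58. Relative to the median of all, the members stood at 0.61 with TMM and 0.62 with library totals. A change of scaling moves all miRNAs by nearly the same amount, so this difference could hardly have changed. The split of all miRNAs tested went from 298 higher and 290 lower to 613 higher (68.5%) and 158 lower (17.7%), and that of the members to 185 higher and 17 lower. Each of the 33 named members moved up by 0.96 to 0.99. For 2 members the direction of the call with TMM was the opposite of that with library totals. Leaving out circSOD2-sh replicate 3 raised the number of lower members from 26 to 41, while leaving out each of the other libraries gave 24 to 30. The lower calls of all miRNAs tested went from 290 of 895 to 351 of 970 without replicate 3, and those of known miRNAs at the same minimum from 113 to 142 of 369. Without circSOD2-sh replicate 2 they were more, at 358 of 969 and 162 of 369, but only 30 members were lower.

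NC replicate 4 and circSOD2-sh replicate 2 had the highest sums of their groups for smooth muscle and fibroblast, endothelial, leukocyte and erythroid markers. Of the other lists, NC replicate 4 was the highest for muscle but not for neural or liver markers, and circSOD2-sh replicate 2 for neural but not for muscle or liver markers. For renal tubule and for renal carcinoma and hypoxia markers, circSOD2-sh replicate 2 was the highest of its group and NC replicate 4 was not. Neither was the highest for epithelial markers. The summed level of the 2 smooth muscle and fibroblast markers was 7.36, 7.08, 8.35 and 537 normalized CPM in NC replicates 1 to 4 and 10.2, 219, 12.4 and 7.64 in circSOD2-sh replicates 1 to 4, with miR-143-3p the most abundant. The 5 neural markers summed to 521, 559, 552 and 524 normalized CPM in NC and 493, 5232, 488 and 475 in circSOD2-sh. In most libraries miR-128-3p made up nearly all of this, but in circSOD2-sh replicate 2 it was 898, while miR-124-3p was 3214 and miR-9-5p 851 normalized CPM.

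Endothelial markers (2 miRNAs, miR-126-3p the most abundant) stood at 345, 348, 334 and 650 normalized CPM in NC and at 267, 511, 262 and 290 in circSOD2-sh. The 4 leukocyte markers, led by miR-142-5p, summed to 1.53, 2.0, 1.19 and 17.1 normalized CPM in NC and to 2.21, 14.6, 3.21 and 2.13 in circSOD2-sh. Again the same library of each group stood above the rest. Erythroid markers (4, led by miR-451a) gave 42.6, 29.7, 26.7 and 171 normalized CPM in NC and 21.6, 59.8, 26.7 and 31.3 in circSOD2-sh, and the 4 muscle markers gave 12.0, 15.7, 9.37 and 47.4 against 30.4, 19.6, 18.4 and 10.7. In NC replicate 4 the muscle sum came mainly from miR-206 (24.3 normalized CPM, at most 0.306 in the rest of NC) and miR-133a-3p (10.1), while miR-1-3p, the most abundant elsewhere, was at its lowest in NC (6.74). The liver marker miR-122-5p ranged from 3.75 to 5.82 normalized CPM over the NC libraries and from 1.36 to 2.49 over the others. No marker of any list was at 0 in all libraries.

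The lists for the labelled cell type had high sums in every library, each carried mostly by 1 miRNA. The 5 renal tubule markers summed to 39512 to 46397 normalized CPM over the NC libraries and to 43752 to 54696 over those of circSOD2-sh, nearly all of it miR-30a-5p. The 6 epithelial markers, led by miR-200b-3p, gave 5083 to 5826 and 4412 to 4880 normalized CPM in the same order, and the 3 markers of renal carcinoma and hypoxia, nearly all miR-21-5p, 125977 to 142874 and 108152 to 154435. Single markers within these sums were uneven. In the list of renal carcinoma and hypoxia, miR-210-3p was only at 13.9 to 27.0 normalized CPM over the 8 libraries. There miR-155-5p was at 8.83 to 15.8, so that list was high through miR-21-5p only. In NC replicate 4, miR-192-5p stood at 952 normalized CPM where NC replicates 1 to 3 had 334 to 360, miR-194-5p at 92.3 against 27.6 to 30.1, miR-200c-3p at 32.6 against 8.43 to 12.1 and miR-141-3p at 25.4 against 5.67 to 8.46. The renal marker miR-204-5p was at 28.9 in circSOD2-sh replicate 2, at 1.24 to 1.53 in the other libraries of that group, and at 0 in NC replicates 2 and 3. In bulk RNA, fewer cells of a type and less RNA per cell cannot be told apart. Without the 2 libraries the members' change was about as large. In the remaining 6 libraries (945 miRNAs tested), 123 members were higher and 28 lower, with a median log2 fold change of 0.64, against 32.7% higher and 37.0% lower of all, and 116 of the higher and 23 of the lower members were the same as with 8 libraries.

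The dominant predicted miRNA had 5461322, 5041284, 4345958 and 3752962 counts in NC replicates 1 to 4 and 3760, 3073, 2352 and 4117 counts in circSOD2-sh replicates 1 to 4. The lowest NC library held far more of it than the highest circSOD2-sh library. The mean over NC was 798856 ± 49459 normalized CPM and over circSOD2-sh 596 ± 113 (SD, n = 4 each), a ratio of 1341. The log2 fold change was -10.39 with a standard error (SE) of 0.19 and an adjusted p of 1.38e-10 in edgeR, and without single libraries it lay between -10.61 and -10.41. The groups did not overlap, and the exact permutation test (two-sided) gave p = 0.0286, the lowest value possible with 4 against 4 libraries. Even after this fall it stayed among the more abundant members in circSOD2-sh.

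Other members followed the same pattern at lower levels. Over the 8 libraries, the members whose log2 levels were most alike to the dominant one were 966 (Pearson r = 0.999), 636 (0.999), 675 (0.998), 811 (0.996) and 702 (0.996). Because the libraries fall into 2 groups that differ in this respect, these correlations mostly restate the difference between the groups, and they carry no test. All 5 were higher in every NC library than in any circSOD2-sh library.

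The 5 largest falls among called members without overlap were those of the dominant predicted miRNA, 675, 966, 811 and 536. The predicted miRNA 966 was at 2111, 1861, 1805 and 2252 normalized CPM in NC and at 13.9, 13.1, 7.82 and 11.4 in circSOD2-sh, a log2 fold change of -7.44 (edgeR adjusted p = 1.13e-09, SE 0.21). For 675 the values were 1035, 778, 745 and 1087 normalized CPM in NC and 4.08, 2.12, 3.01 and 3.02 in circSOD2-sh, with a log2 fold change of -8.21 (edgeR adjusted p = 1.41e-09, SE 0.24). In both, NC replicates 1 and 4 were the highest and no library of the groups overlapped. The fall of 675 ended at 12 to 24 counts, close to the minimum, so a larger fall at this level would have removed it from the list. The log2 fold change of 811 was -7.29 and that of 536 was -6.07, and both had NC replicates 1 and 4 above NC replicates 2 and 3.

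Of the members in the tail of this pattern, 636 went from 158 ± 24.1 normalized CPM in NC to 3.63 ± 0.747 in circSOD2-sh (SD, n = 4), and 702 from 159 ± 19.6 to 16.4 ± 3.44. They thus had nearly the same level in NC, and the circSOD2-sh level of 702 was over 4 times that of 636. The predicted miRNA 677, the sixth most abundant member after identical ones are joined, was at 1506, 1120, 1070 and 1460 normalized CPM in NC and 507, 338, 353 and 457 in circSOD2-sh, a log2 fold change of -1.64 (edgeR adjusted p = 1.26e-05, SE 0.17) that was -0.66 with library totals. Members that fell therefore ranged from small changes to over 1000-fold.

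The largest rise was that of 920, which had 73, 55, 29 and 34 counts in NC and 2108, 1332, 1286 and 1778 counts in circSOD2-sh. Its level went from 8.06 ± 2.57 to 292 ± 55.8 normalized CPM (SD, n = 4), with all circSOD2-sh libraries over 20 times the highest NC library. The log2 fold change was 5.17 (edgeR adjusted p = 5.87e-08, SE 0.26), and it lay between 4.94 and 5.33 without single libraries. Behind it came the 3 members 185a, 185b and 185c, identical to each other, and the predicted miRNA 9, each at a log2 fold change of 3.78. The counts of these last 4 lay close to those of a known miRNA, described below. Of the 5 largest rises, only 920 is thus not tied to a known miRNA.

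**Figure D3:**
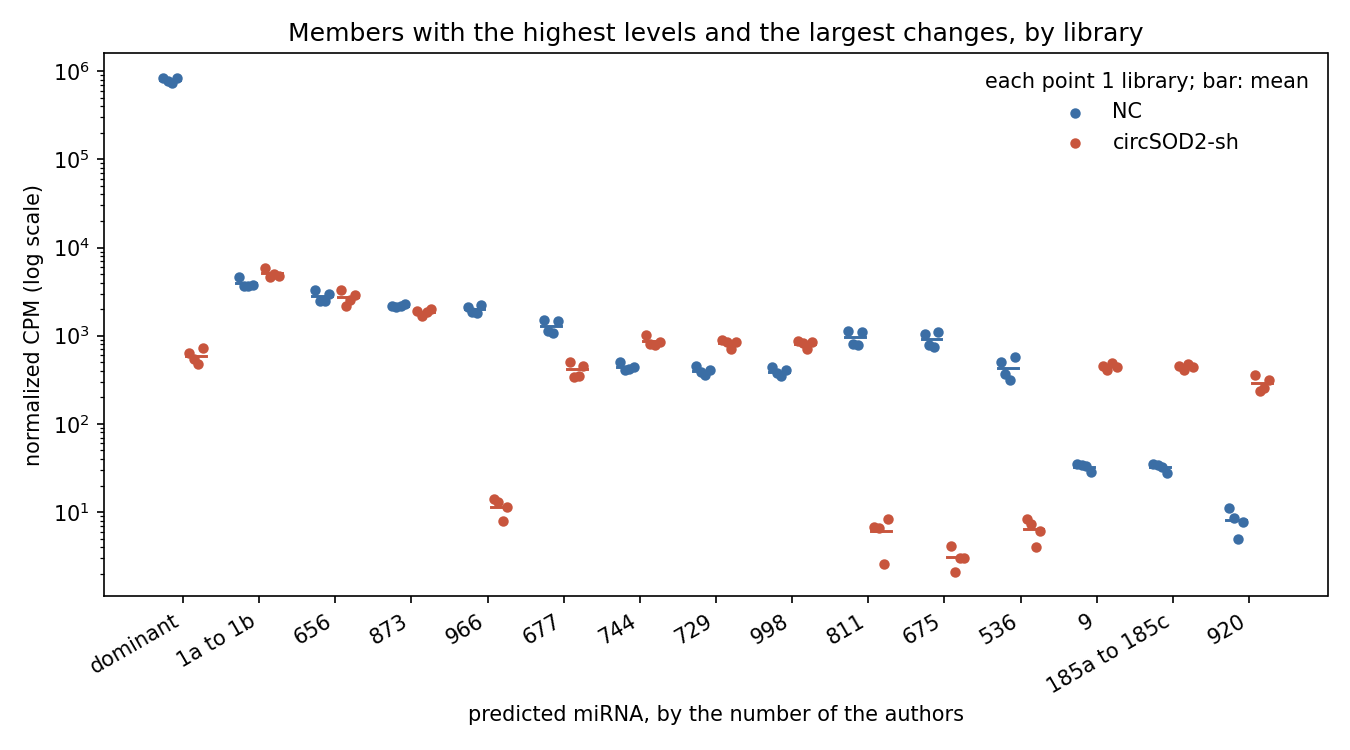
Normalized CPM (y axis, log scale) of the members with the highest mean level and the largest changes (x axis), identical members shown once; each point is 1 library of NC or circSOD2-sh and each bar the mean of 4. The dominant predicted miRNA, 966, 811, 675 and 536 drop by over 60-fold, 9, 185a to 185c and 920 rise by over 13-fold, and 1a to 1b and 656 overlap between the groups.

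The abundant members other than those changed far less. The identical pair 1a and 1b had 30074, 23711, 21571 and 16839 counts in NC and 34817, 25996, 24904 and 27066 in circSOD2-sh, or 4609, 3647, 3675 and 3781 against 5912, 4585, 4992 and 4810 normalized CPM. Apart from the high NC replicate 1, the NC libraries were below the circSOD2-sh libraries, and the groups overlapped through that library. The log2 fold change was 0.37 (edgeR adjusted p = 0.0117, SE 0.11), the exact two-sided permutation p was 0.0571, and without single libraries the value lay between 0.17 and 0.41 with adjusted p from edgeR up to 0.167. The call was lost in 6 of the 8 fits that left out a library and kept only without NC replicate 1 or circSOD2-sh replicate 2; the fit without circSOD2-sh replicate 1 gave the lowest value.

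The predicted miRNA 656 was at 3300, 2495, 2501 and 2977 normalized CPM in NC and at 3296, 2145, 2567 and 2931 in circSOD2-sh. The groups overlapped fully, with replicate 1 the highest of each. Its log2 fold change was -0.04 (edgeR adjusted p = 0.795, SE 0.14), and with library totals it was 0.94. The predicted miRNA 873 was at 2188, 2128, 2164 and 2313 normalized CPM in NC and at 1882, 1670, 1849 and 1988 in circSOD2-sh, without overlap and with the tightest NC libraries of the abundant members. Its log2 fold change was -0.25 (edgeR adjusted p = 0.0126, SE 0.07), which turned to 0.72 with library totals. The call was lost with identical miRNAs entered once (-0.14) and with no low-count filter (-0.28), while leaving out circSOD2-sh replicate 1, 3 or 4 gave -0.38, -0.40 and -0.40.

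Some abundant members rose to about 2 times their NC level with TMM, and further with library totals. The predicted miRNA 744 was at 503, 412, 423 and 446 normalized CPM in NC and at 1021, 810, 784 and 851 in circSOD2-sh, a log2 fold change of 0.96 (edgeR adjusted p = 2.48e-05, SE 0.11). For 729 the values were 454.7, 383, 358 and 410 normalized CPM in NC and 895, 842, 713 and 849 in circSOD2-sh, and the log2 fold change was 1.04 (edgeR adjusted p = 1.10e-05, SE 0.10). In both, every circSOD2-sh library lay above every NC library. The predicted miRNA 998 gave 1.05 and had counts within 2.81% of those of 729 in every library, so these 2 members nearly repeat each other. With library totals the log2 fold changes were 1.93 for 744, 2.01 for 729 and 2.03 for 998.

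Many members share their counts. In 22 sets of identical counts there were 83 members, 16 of the sets being pairs. The 3 largest sets were 23a to 23q with 17 members, 55a to 55n with 14, and 121a to 121g with 393a to 393c, which make 10 and are the only set that joins 2 numbers. All 83 members whose name ends in a letter (23 numbers) had the counts of every other member of their number. In the whole table, the same held for each of the 111 numbers with several lettered predicted miRNAs. The letter thus marks predicted miRNAs that share all of their counts, and how reads were assigned among them is not stated.

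The identical members weigh on the list because the large sets were higher in circSOD2-sh. Of the 83 members in sets, 68 were higher and 4 lower, with a median log2 fold change of 1.19, whereas as sets 15 of 22 were higher and 2 lower. Over all 895 miRNAs tested, 33.3% were higher and 32.4% lower. Of the 135 members outside sets, 56 were higher and 22 lower, with a median of 0.38. The set 23a to 23q had only 16, 29, 17 and 12 counts in NC and 51, 38, 35 and 36 in circSOD2-sh, with a log2 fold change of 1.19 (edgeR adjusted p = 0.000998, SE 0.22). Its groups did not overlap, and these 8 values enter the list of 218 members 17 times.

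For 55a to 55n the counts were 15, 17, 20 and 13 in NC and 52, 39, 21 and 45 in circSOD2-sh, with a log2 fold change of 1.32. For the set of 121 and 393 they were 11, 15, 18 and 11 against 45, 35, 15 and 39, with a log2 fold change of 1.33. In both sets circSOD2-sh replicate 3 was much lower than the rest of its group, and in the second set it overlapped NC. Among the sets with the highest counts, 640a and 640b had a log2 fold change of 0.94 (edgeR adjusted p = 0.000339) and 595a and 595b of 0.92 (edgeR adjusted p = 0.00172), while 490a and 490b stood at 0.07 (edgeR adjusted p = 0.799). The pair 490a and 490b was at 102, 88.3, 77.0 and 114 normalized CPM in NC and at 131, 59.6, 88.4 and 121 in circSOD2-sh, with replicates 1 and 4 the highest in both groups. Its value changed sign in 5 of the 8 fits that left out a library (NC replicates 2 and 3 and circSOD2-sh replicates 1, 3 and 4), over a range of -0.20 to 0.16.

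The 11 members tied to known miRNAs had counts within 5% of the known miRNA in each of the 8 libraries, a threshold chosen after the values were seen. The largest difference among the 11 was 2.22%, and the next member differed by up to 16.9% from its nearest known miRNA. Of the 11, 4 were identical to the known miRNA in every library: 144 to miR-339-5p, 232 to miR-28-5p, 387 to miR-561-5p and 1270 to miR-423-5p. The remaining 7 were 9 and 185a to 185c (miR-339-5p, up to 0.444% and 2.22%), 743 (miR-574-5p, 0.338%), 97 (miR-130b-5p, 1.24%) and 149 (miR-1296-5p, 1.52%). Whether the authors counted the same reads for both names was not tested, since no reads are in the files.

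**Figure D4:**
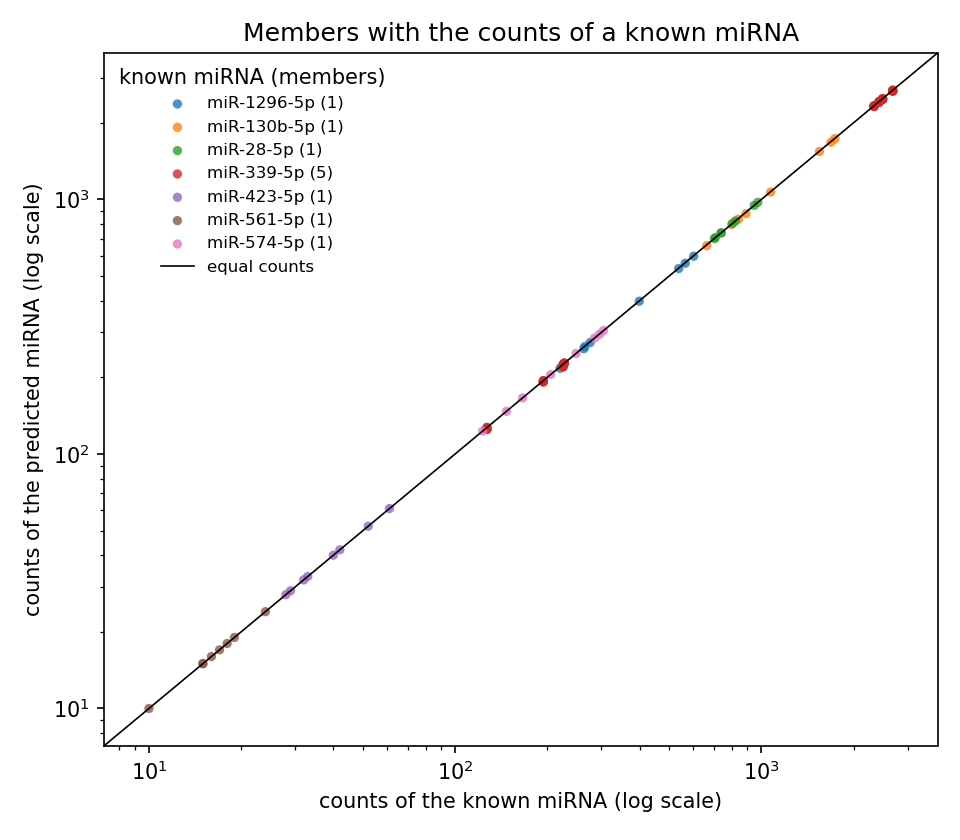
Counts of 11 members (y axis, log scale) against the counts of the known miRNA that each follows (x axis, log scale), 1 point for each member and library, coloured by the known miRNA. All points lie on or within 2.22% of the line of equal counts, and the 5 members of miR-339-5p lie at the top in circSOD2-sh and at 125 to 227 counts in NC.

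miR-339-5p had 227, 225, 194 and 127 counts in NC and 2684, 2332, 2422 and 2487 in circSOD2-sh. Every circSOD2-sh library held more than 10 times the counts of any NC library. Its log2 fold change was 3.77 (edgeR adjusted p = 1.13e-09, SE 0.11), the same as that of the predicted miRNA 144, and the predicted miRNAs 9 and 185a to 185c repeat this rise with up to 2.22% fewer counts in a library. The rise was thus entered 5 times among the members and once more among the known miRNAs.

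The predicted miRNA 97 had 1732, 1678, 1542 and 1069 counts in NC and 879, 658, 797 and 836 in circSOD2-sh, where miR-130b-5p had 1737, 1687, 1547 and 1072 against 890, 663, 799 and 841. Both were lower in circSOD2-sh without overlap, with a log2 fold change of -0.84 for 97 (edgeR adjusted p = 9.28e-05) and -0.83 for miR-130b-5p (edgeR adjusted p = 9.41e-05), and that of 97 turned to 0.13 with library totals. The predicted miRNA 149 went from 89.7 ± 5.58 to 45.7 ± 1.53 normalized CPM (SD, n = 4), a log2 fold change of -0.97 (edgeR adjusted p = 9.67e-06) against -0.97 for miR-1296-5p, and with library totals it was -0.01 and was no longer called. Every NC library of 149 was above every circSOD2-sh library.

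The remaining 4 were not called: 232 stood at -0.13, 1270 at -0.42, 387 at -0.28 and 743 at -0.46 (adjusted p from edgeR 0.235, 0.0642, 0.333 and 0.0635). For all 4 the groups overlapped, and all 4 values turned positive with library totals, where all 4 were called higher (adjusted p from edgeR 1.39e-05, 0.0171, 0.0133 and 0.0420). The predicted miRNA 743 passed the threshold without circSOD2-sh replicate 2 (-0.75) and in 3 other fits that left out NC replicate 4, circSOD2-sh replicate 1 or circSOD2-sh replicate 3, and 1270 passed it without NC replicate 3 (-0.53), circSOD2-sh replicate 2 (-0.66) or circSOD2-sh replicate 3 (-0.55). In the same way, 232 passed without circSOD2-sh replicate 3 (-0.33). Both 743 and 1270 also passed with RLE factors (-0.52 and -0.48), without the dominant predicted miRNA in the table (-0.49 and -0.45) and with 6 libraries (-0.81 and -0.68), and 743 passed with DESeq2 (-0.52). Taken out of the list, the 11 members left 207, of which 119 were higher and 24 lower, with a median log2 fold change of 0.61. Among all miRNAs tested, 33.3% were higher and 32.4% lower.

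Apart from members tied to known miRNAs, 2 pairs of members with different numbers had nearly the same counts: 53 and 70 were within 0.982% of each other in every library, and 729 and 998 within 2.81%. The predicted miRNA 53 had 657, 509, 460 and 493 counts in NC and 727, 571, 538 and 660 in circSOD2-sh, and 70 had 654, 504, 457 and 489 against 733, 576, 542 and 663. In NC 53 was slightly above 70 in every library, and in circSOD2-sh slightly below.

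Counted apart, members at the lowest levels had the highest median change. Below 10 normalized CPM, 71 of 120 members were higher and 5 lower, with a median log2 fold change of 0.85, and from 10 to 100 normalized CPM 35 of 61 were higher and 12 lower, with a median of 0.47. From 100 to 1000 normalized CPM, 16 of 31 were higher and 6 lower (median 0.61), and above that 2 of 6 were higher and 3 lower (median -0.15). Known miRNAs at these levels had medians of 0.002, -0.22, -0.11 and -0.12, with 13 of 92, 30 of 145, 21 of 77 and 19 of 55 higher and 18, 46, 26 and 23 lower. Over all miRNAs tested, at any level, 33.3% were higher and 32.4% lower. With identical members once, the medians of the 4 levels were 0.37, 0.47, 0.43 and -0.25, and 27 of 71 members were higher and 4 lower at the lowest level. Most of the difference between the 3 lower levels thus went with the identical sets, and no test of a difference between levels was made.

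In the median, members varied more between libraries of a group than known miRNAs did. The median standard deviation of log2(normalized CPM + 1) over 4 libraries was 0.245 in NC and 0.248 in circSOD2-sh for the members, and 0.145 and 0.192 for known miRNAs at the same minimum. Below 10 normalized CPM, where most members lie, the members stood at 0.247 in NC and 0.271 in circSOD2-sh against 0.208 and 0.289 for known miRNAs, so in circSOD2-sh the known miRNAs varied more. Counting error alone (Poisson, on the same log2 scale) would give members at this level 0.260 and 0.209. From 10 to 100 normalized CPM the values were 0.234 and 0.238 against 0.154 and 0.182. From 100 to 1000 normalized CPM, where counting error gives 0.0493 for members in NC, they were 0.244 and 0.211 against 0.109 and 0.152, and above that 0.155 and 0.213 against 0.0898 and 0.115. The members were thus the more variable at every level over 10 normalized CPM. No test of these differences was made, because members with the same or nearly the same counts are not replicates.

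Part of the spread was common to the members of a library. With identical members once, 116, 40, 44 and 120 of the 157 were above their group mean in NC replicates 1 to 4, and 115, 49, 52 and 106 in circSOD2-sh replicates 1 to 4. Replicates 1 and 4 were thus the high libraries and replicates 2 and 3 the low ones in both groups. The median deviation from the group mean was 0.14, -0.12, -0.17 and 0.15 in NC and 0.16, -0.12, -0.09 and 0.08 in circSOD2-sh, on the log2 scale. Known miRNAs at the same minimum deviated less and with the opposite sign, by -0.05, 0.01, 0.06 and -0.03 in NC and by -0.07, 0.06, 0.03 and -0.03 in circSOD2-sh. Both lists were scaled together with TMM, so their deviations are not independent. Whether the opposite sign comes from this scaling was not tested. With each library's median deviation taken off, the median standard deviation of the members fell from 0.237 to 0.184 in NC and from 0.245 to 0.196 in circSOD2-sh, while that of known miRNAs went from 0.144 to 0.131 and from 0.188 to 0.179.

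**Figure D5:**
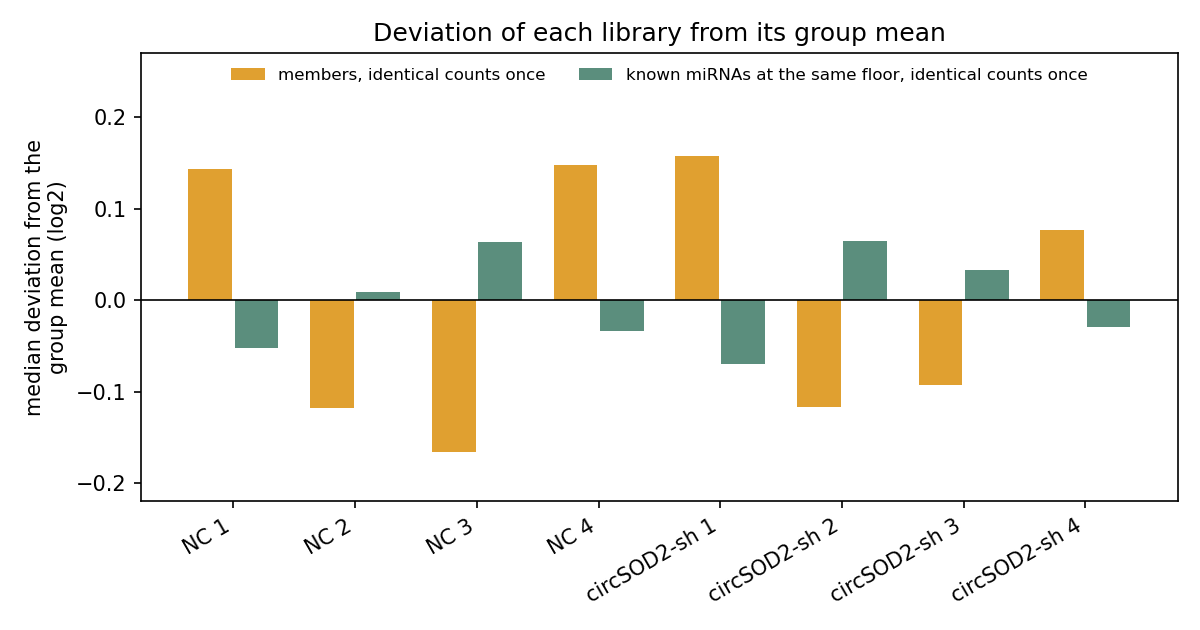
Median deviation from the group mean on the log2 scale (y axis) in each library (x axis), for the 157 members and the 364 known miRNAs at the same minimum, identical counts once. Members lie above their group mean in replicates 1 and 4 and below it in replicates 2 and 3 of both groups, and known miRNAs lie on the other side of 0 by less than 0.1. Both lists were scaled together with TMM, so their deviations are not independent.

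Some known miRNAs, all of them abundant except miR-210-3p, give the scale of change in the same libraries. miR-21-5p, an oncogenic miRNA common in carcinoma cells, was at 133495 ± 8734 normalized CPM in NC and 130705 ± 19581 in circSOD2-sh (SD, n = 4), a log2 fold change of -0.03 that was 0.93 with library totals. miR-100-5p stood at 2.79, miR-92a-3p of the miR-17/92a cluster at 1.69, miR-103a-3p at 0.40, miR-191-5p at 0.36 and miR-30a-5p at 0.25, each called higher with edgeR. Called lower were miR-16-5p at -0.58, let-7a-5p at -0.62 and the hypoxia miRNA miR-210-3p at -0.54, and these 3 turned to 0.38, 0.35 and 0.43 with library totals. The dominant predicted miRNA had about 6 times the level of miR-21-5p in NC and under 1% of it in circSOD2-sh.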

How the data were processed

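Small RNA of 4 NC and 4 circSOD2-sh samples was measured. By the submitters' processing notes, reads were checked with FastQC 0.11.2, trimmed with Trimmomatic 0.36 and aligned with Bowtie 1.1.1 to GRCh38; the counting and prediction tools are not stated. The authors deposited counts per miRNA without normalization and CPM whose divisor exceeds the sum of the listed counts. Their comparison table holds mean CPM, fold changes and p-values by the authors, and it was not used, since its values come from an unstated test. The members and lists were chosen with earlier results of these data known; the dominant predicted miRNA is the one numbered 455.

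Counts of known and predicted miRNAs were fitted together in R 4.3.3 with edgeR 4.0.16: filterByExpr with a minimum count of 10, TMM, the quasi-likelihood test with prior count 0.125, and p-values adjusted by Benjamini-Hochberg over all miRNAs tested. Alternatives were DESeq2 1.42.0, RLE factors, library totals, upper-quartile factors, factors from known miRNAs, no filter, only miRNAs averaging 50 counts or more, prior count 2, limma 3.58.1 on deposited CPM (log2, plus 1 or plus 0.1), each library left out, the replicate block, the dominant miRNA left out and identical miRNAs once. After seeing the data, a fit of 6 libraries (NC replicate 4 and circSOD2-sh replicate 2 left out) and counts without members tied to known miRNAs were added. Exact permutation tests were two-sided over log2 of normalized CPM plus 1. The fits were tested on simulated counts in which the most abundant miRNAs were kept unchanged. That test therefore does not cover a shift like that of the dominant one.

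Named members are the dominant one, the 10 with the highest mean and the 5 largest rises and falls among called members without overlap. Also named are the 5 sets of identical counts with the highest mean and the 5 members most alike to the dominant one. On either side of the minimum, 3 predicted miRNAs are named. They come from ties of 15 inside and 9 outside, so none is nearer than the others tied. Other sets, near-identical pairs and members tied to known miRNAs were named after their values were seen. Marker lists of 10 cell types were used whole. Sequences were matched by name to RefSeq (GRCh38.p14) for 1298 of 1482 known miRNAs, and host genes were read from GENCODE release 29 on GRCh38. NC libraries held 6386872 to 9245044 counts, and circSOD2-sh libraries 3743860 to 4208276. Python 3.11.15, pandas 2.3.3, scipy 1.17.1, numpy 2.4.6 and matplotlib 3.10.9 were used.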

Additional observations from a re-analysis of the deposited data

Results flagged for a closer look

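In 11 of 84 groups of 4 libraries examined for the named members and marker lists, 1 library lay far from the other 3 (gap to the nearest over the whole range above Dixon's 95% critical value). Chance alone singles out about 1 in 20 groups, or 4.2 here. NC replicate 4 stood apart in the summed markers of muscle (47.4 normalized CPM against 9.37 to 15.7, mainly miR-206, with miR-1-3p not raised), erythroid cells (171 against 26.7 to 42.6), leukocytes (17.1 against 1.19 to 2.0), smooth muscle and fibroblasts (537 against 7.08 to 8.35) and endothelium (650 against 334 to 348). For circSOD2-sh replicate 2 the same was seen in neural markers (5232 against 475 to 493, mainly miR-124-3p), leukocytes (14.6 against 2.13 to 3.21), smooth muscle and fibroblasts (219 against 7.64 to 12.4) and endothelium (511 against 262 to 290). Without these 2 libraries, the median log2 fold change of the members was 0.64 in place of 0.61.

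Among named members, the identical pair 1a and 1b, counted once, was high in NC replicate 1 (4609 normalized CPM against 3647 to 3781), and the predicted miRNA 1143, just inside the minimum, was low in circSOD2-sh replicate 2 (2.12 against 3.21 to 3.38). Over the 157 distinct members, 16 of 314 groups had such a library, where chance gives 15.7. They were spread over 7 libraries, with 4 each in circSOD2-sh replicates 2 and 3, 3 in NC replicate 3 and 2 in NC replicate 4.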

How the results depend on the processing

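The number of members higher in circSOD2-sh (124) lay between 95 and 119 without single libraries. The number lower (26) lay between 24 and 41, the highest without circSOD2-sh replicate 3. Of all miRNAs tested in each of these fits, 27.3% to 33.0% were higher and 31.2% to 36.9% lower. Requiring a mean of at least 50 counts left 103 members, 60 of them higher and 21 lower, against 29.7% higher and 42.2% lower of the 502 tested. Entering identical miRNAs once gave 79 higher members, against 32.7% higher of all. Lower members were 17 with library totals, upper-quartile factors and limma on CPM plus 1 or 0.1, and the median log2 fold change of the members (0.61) was 1.58, 1.46, 1.25 and 1.42 in the same order. These 4 settings raise the median of all miRNAs tested as well, to 0.96, 0.83, 0.72 and 0.82. With them, 17.7% to 18.2% of all miRNAs tested were lower. A minimum of 20 counts left 117 members and one of 50 counts 77. The members held 59.0% of all counts in NC. Without the dominant one they held 1.88% of all counts in NC, or 4.41% of the counts that remained. In circSOD2-sh the share of all counts fell from 3.99% to 3.01% with identical members once. The cause of these differences was not tested, other than that fewer members can be counted under stricter minimums.

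Of 720 values of 33 named members under alternatives, 638 kept their direction and side of the threshold, 27 lost the call, 23 gained it and 32 changed sign, in 8 members. With library totals, upper-quartile factors and limma on CPM plus 1 and plus 0.1, the log2 fold change was 0.94, 0.82, 0.77 and 0.77 for 656, 0.72, 0.60, 0.57 and 0.57 for 873, 0.84, 0.72, 0.69 and 0.69 for 232, 0.54, 0.41, 0.34 and 0.39 for 1270, 0.69, 0.56, 0.38 and 0.51 for 387, and 0.50, 0.35, 0.32 and 0.33 for 743. That of 97 was 0.13 and 0.011 with the first 2. Entering identical miRNAs once gave 0.064 for 656, and 490a lay between -0.20 and 0.16 without single libraries. The falls of the dominant one, 675, 966, 811 and 536 and the rises of 920, 185a to 185c and 9 kept their call under every alternative run.

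Deviations of same-numbered libraries correlated at 0.33, 0.04, 0.19 and 0.04 over the 157 distinct members, 2 of 4 numbers matched best with their own, and the median deviations shared their sign in all 4. Not every correlation was over 0.1, so the numbers were not taken to pair the libraries. With the replicate number as a block, 126 members were higher and 28 lower, with a median of 0.61, and 296 were higher and 278 lower of all 895. Over the members, chi-square per degree of freedom between 2 libraries of a group was 2.08 to 14.2. Without the dominant predicted miRNA it was 1.82 to 11.5, and the highest pair, NC replicates 1 and 2, fell from 14.2 to 6.64. Depth limits the members just above 10 counts, for which counting error alone spans much of the spread.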
